A study of Mus musculus with 2 samples.

Results

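Microglia, the resident macrophages of the brain parenchyma, and the macrophages around its vessels were followed here through 33 genes in mouse hippocampus. The genes were chosen by symbol as known markers of these cells, and all 33 were found among the 55536 annotated genes. They comprised 10 genes of resting (homeostatic) microglia, the 3 subunit genes of complement C1q, 8 receptors and signalling adaptors, and 2 myeloid transcription factors. The others were 6 lysosomal and cytoplasmic genes, 2 leukocyte surface genes and 2 markers of perivascular macrophages. Hippocampal total RNA came from male mice of the B6CASTF1/J cross, an F1 hybrid of C57BL/6J and CAST/EiJ, aged 2 months and supplied by The Jackson Laboratory. No mouse carried a treatment or an engineered allele according to the labels, so the 2 libraries, biological replicates 1 and 2, made up 1 group and no test between groups was possible. The labels name 1 strain-level donor for both libraries and do not say outright that the replicates were separate animals, so the spread between them may be technical in part.

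Microglia enter the brain in the embryo and maintain themselves there, dependent on signals through the receptor Csf1r. In healthy tissue they carry a distinctive set of surface sensors, among them the fractalkine receptor Cx3cr1 and the ADP receptor P2ry12, and they survey synapses and clear debris with the help of complement. Perivascular and meningeal macrophages share the general myeloid genes but express scavenger receptors such as Mrc1 instead of the homeostatic microglial set. PU.1, the product of Spi1, is the master transcription factor of the myeloid lineage and binds purine-rich DNA with a GGAA core.

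That core, within a longer PU.1-type motif, was looked for in the promoters of the members, and the promoter stretches that hold it are shown here because many members are known as PU.1 targets. Promoters, from 250 bases before to 50 bases after each RefSeq start on GRCm38.p6, were searched for 25 of the 33 genes. The other members, among them Csf1r and Cd14, were left out of the search and have no motif result. The 7-letter motif GAGGAAG, searched on both strands, was present in 12 of these 25 genes, in 13 of their 30 promoters (43.3%), against 13.6% of all 32851 promoters. Its shorter form GAGGAA was present in 18 of the 30 promoters (60%) against 28.3% of all promoters, and the longer form GAGGAAGT in 5 of the 30 (16.7%) against 3.2%. These spellings overlap one another, they were chosen after matches in these promoters had been seen, and a match is a description of letters and not evidence of binding. The 4 other motifs searched lay closer to their share in all promoters, and no match to them overlapped a GAGGAAG match. The TATA box (TATAAA) was in 16.7% of the members' promoters against 13.6% of all promoters, and the AP-1 motif (TGAGTCA) in 6.67% against 5.2%. The E-box (CACGTG) was in 6.67% against 7.15%, and the GC box (GGGCGG) in 33.3% against 35.7%.

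In 6 genes the GAGGAAG match lay before the start in both RefSeq and GENCODE, and those stretches are printed with the match in capitals (CTTCCTC is its reverse complement). Each is given 5′ to 3′ on the strand of its gene. C1qc (chr4:136893066-136893148) and P2ry13 (chr3:59210884-59210970) lie on the minus strand. Itgam (chr7:128062516-128062602), Trem2 (chr17:48346320-48346400), Mrc1 (chr2:14229206-14229292 and chr2:14229338-14229391) and Pf4 (chr5:90772386-90772434) lie on the plus strand.
C1qc: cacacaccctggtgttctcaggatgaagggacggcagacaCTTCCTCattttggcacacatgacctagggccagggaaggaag
P2ry13: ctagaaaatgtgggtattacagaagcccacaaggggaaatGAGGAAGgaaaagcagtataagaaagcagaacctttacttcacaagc
Itgam: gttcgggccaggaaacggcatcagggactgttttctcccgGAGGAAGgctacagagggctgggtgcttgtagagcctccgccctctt
Trem2: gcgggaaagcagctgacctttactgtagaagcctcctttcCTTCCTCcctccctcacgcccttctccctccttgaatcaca
Mrc1, farther match: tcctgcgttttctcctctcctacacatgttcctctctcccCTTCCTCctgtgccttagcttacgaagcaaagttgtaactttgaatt
Mrc1, nearer match: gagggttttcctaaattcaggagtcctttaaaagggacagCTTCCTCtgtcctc
Pf4: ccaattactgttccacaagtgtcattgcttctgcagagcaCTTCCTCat
The match ended 188 bases before the RefSeq start in C1qc, 78 in Itgam, 42 in P2ry13, 35 in Trem2 and 3 in Pf4. Mrc1 was the single gene of the 6 with a pair of matches before its start, ending 162 and 30 bases before it. Both microglial (P2ry13, Trem2) and perivascular (Mrc1, Pf4) genes were among them, so the motif occurred in both groups.

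As a whole the 33 genes were present at low to moderate levels and were close to equal in the libraries. Levels are given as TPM, an abundance scaled for transcript length and library depth on which genes can be set side by side. In bulk tissue, fewer cells of a type and less RNA per cell cannot be told apart. The summed level of the members was 265.8 TPM in replicate 1 and, in replicate 2, 266.0 TPM. This made up 0.0632% and 0.0646% of the TPM of nuclear protein-coding genes. Detection, at 1 TPM or more in each library, was reached by 31 of 33 members, against 26.2% of all annotated genes and 57.7% of protein-coding genes. Spi1 and Pf4 missed it, each in replicate 1 alone. The members were chosen with earlier results of these data known, so their share describes the list only. The median of the members' mean levels was 4.80 TPM, below the median of 12.8 TPM over all 14560 detected genes, and 7 members lay above that median. In all, 11 members had a mean of at least 10 TPM, 17 lay between 2 and 10 TPM, and 5 were under 2 TPM.

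**Figure D1:**
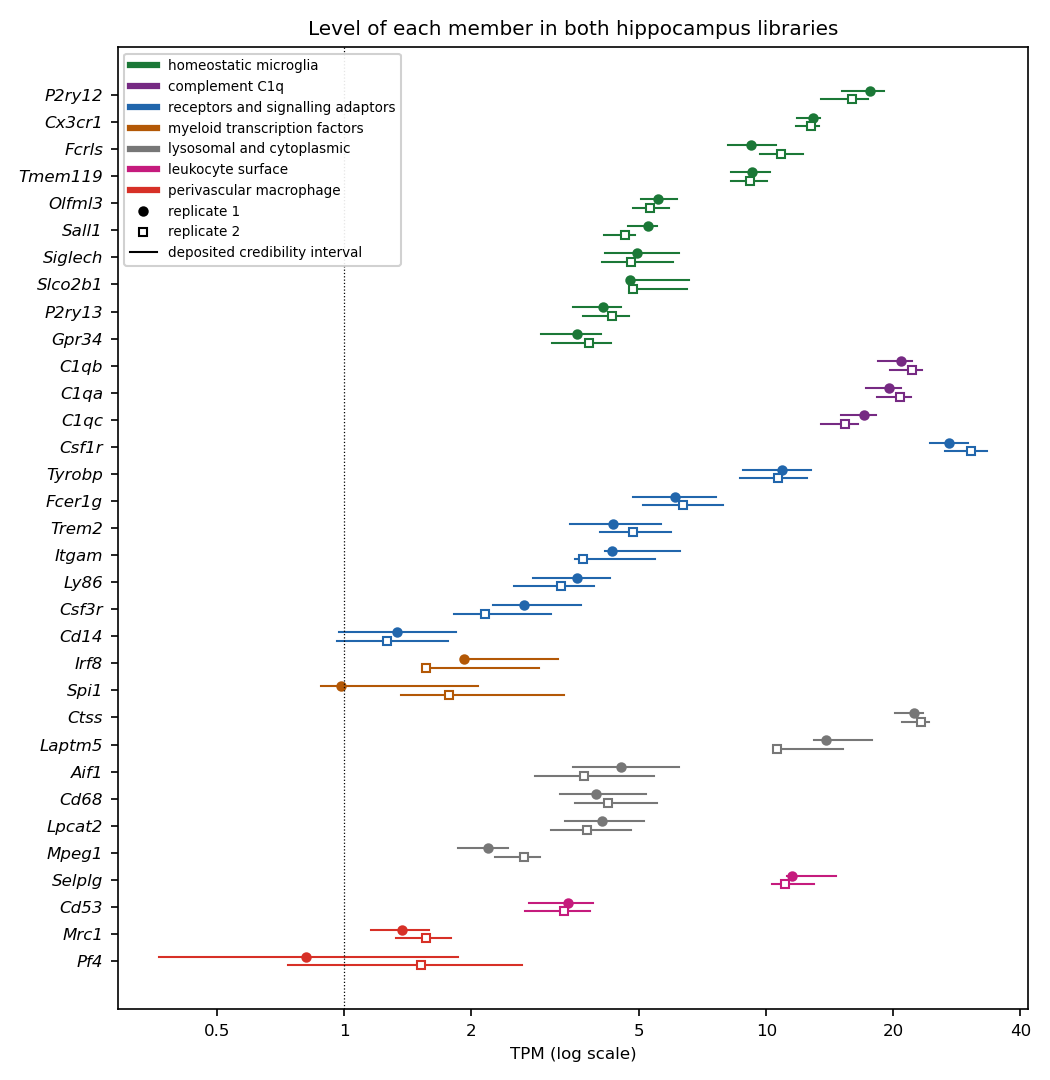
Level in TPM (log axis) of the 33 genes in replicate 1 (filled circles) and replicate 2 (open squares), grouped by role, with the credibility interval deposited for each library as a line and a dotted line at 1 TPM. Csf1r is highest at a mean of 28.8 TPM, both perivascular genes lie under 2 TPM, and the intervals of the libraries overlap for each member with at least 50 counts in both libraries.

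The homeostatic genes were each detected, with means from 3.67 TPM (Gpr34) to 16.8 TPM (P2ry12) and a median of 5.18 TPM. P2ry12, the ADP receptor that steers microglial processes toward injury, had 17.6 TPM in replicate 1 and 15.9 TPM in replicate 2 (16.8 ± 1.21, SD, n = 2). Its relative P2ry13, another receptor for ADP that neighbours it on chromosome 3, had 4.10 and 4.31 TPM (4.21 ± 0.148). P2ry12 was thus the higher of this pair by 3.997 ± 0.429 times, and their values did not overlap. Cx3cr1, the receptor for the neuronal chemokine fractalkine, had 12.9 TPM in replicate 1 and 12.8 TPM in replicate 2 (12.8 ± 0.0778), from 1059 and 1079 counts.

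Tmem119, a membrane protein used to tell microglia from blood-derived macrophages, had 9.27 and 9.15 TPM (9.21 ± 0.0849). Fcrls, an Fc receptor-like scavenger protein of mouse microglia, had 9.19 TPM in replicate 1 and 10.8 TPM in replicate 2 (10.005 ± 1.15). Its counts of 434 and 530 differed more than those of any other member relative to sampling noise (chi-square 9.95), with replicate 2 higher. Tmem119 and Fcrls could not be ordered, since their values overlapped.

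Siglech, a sialic acid-binding lectin, had 4.94 and 4.79 TPM (4.87 ± 0.106). Sall1, the transcription factor that maintains microglial identity, had 5.25 TPM in replicate 1 and 4.62 TPM in replicate 2 (4.93 ± 0.445). Slco2b1, an organic anion transporter, had 4.76 and 4.84 TPM (4.80 ± 0.0566) and was the median gene of the 33. These 3 genes overlapped in level and had no resolved order. Olfml3, a secreted olfactomedin-like protein, had values above theirs, 5.55 and 5.31 TPM (5.43 ± 0.170), but its deposited intervals overlapped theirs. Gpr34, a receptor for lysophosphatidylserine, was the lowest homeostatic gene with 3.55 and 3.80 TPM (3.67 ± 0.177).

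The C1q genes were among the most abundant members. C1q, the recognition protein of the classical complement pathway that tags synapses for removal, is assembled from A, B and C chains in equal number. Their genes lie side by side on the minus strand of chromosome 4, within 18.7 kb (chr4:136880129-136898803 on mm10). C1qa had 19.6 TPM in replicate 1 and 20.7 TPM in replicate 2 (20.1 ± 0.799). C1qb had 20.8 and 22.1 TPM (21.5 ± 0.905). C1qc, the lowest of the 3 in both libraries, had 17.0 and 15.3 TPM (16.2 ± 1.195). As shares of their sum, which was 57.4 and 58.1 TPM, C1qa held 34.9% ± 1.08, C1qb 37.1% ± 1.24 and C1qc 28.0% ± 2.32. The RNA of the 3 genes thus departed from an even split by a few points, with C1qb first in each library. These shares of RNA do not give the number of protein chains. In the second quantification C1qa held 31.2%, C1qb 38.1% and C1qc 30.8%, so the place of C1qb at the top remained and the gap between C1qa and C1qc closed to less than the SD of C1qc (1.63).

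Among the receptors, Csf1r was the highest of all 33 genes. It encodes the receptor for colony-stimulating factor 1 and interleukin 34 on which microglial survival depends, and it had 27.2 TPM in replicate 1 and 30.5 TPM in replicate 2 (28.8 ± 2.33), from 2164 and 2311 counts. Csf3r, the receptor for granulocyte colony-stimulating factor, had 2.67 and 2.16 TPM (2.42 ± 0.361). The cytokine receptors therefore differed by 12.1 ± 2.78 times. Trem2, the lipid-sensing receptor of microglia, had 4.33 and 4.82 TPM (4.58 ± 0.346). Its signalling adaptor Tyrobp (DAP12) had 10.9 and 10.7 TPM (10.8 ± 0.163), which put the adaptor 2.36 ± 0.215 times above the receptor. Tyrobp also serves other receptors. Fcer1g, the adaptor shared by Fc receptors, had 6.06 and 6.33 TPM (6.20 ± 0.191).

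Itgam, the CD11b chain of complement receptor 3, had 4.30 TPM in replicate 1 and 3.67 TPM in replicate 2 (3.98 ± 0.445). Its partner chain Itgb2 (CD18) had 1.36 and 1.71 TPM (1.54 ± 0.247), so Itgam stood above it in both libraries. Ly86 (MD-1), a partner of a Toll-like receptor relative, had 3.56 and 3.26 TPM (3.41 ± 0.212). Cd14, the co-receptor for bacterial lipopolysaccharide, was the lowest receptor with 1.33 and 1.26 TPM (1.29 ± 0.0495), from 42 and 45 counts.

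The transcription factors were near the detection limit. Irf8, which acts with PU.1 in myeloid cells, had 1.92 and 1.56 TPM (1.74 ± 0.255). Spi1 itself had 0.98 TPM in replicate 1 and 1.77 TPM in replicate 2 (1.38 ± 0.559), from counts of 40 and 45 that were nearly equal. The gap in TPM went with the effective length used in the scaling, 1810 bases in replicate 1 and 1100 bases in replicate 2. Values for Irf8 and Spi1 overlapped, so they had no order.

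The lysosomal and cytoplasmic genes ranged from 2.42 TPM (Mpeg1) to 22.8 TPM (Ctss) in mean level. Ctss, the lysosomal protease cathepsin S, had 22.4 and 23.2 TPM (22.8 ± 0.580) and was next to Csf1r in the order. Laptm5, a lysosomal membrane protein of blood-lineage cells, had 13.8 TPM in replicate 1 and 10.6 TPM in replicate 2 (12.2 ± 2.31), with counts of 517 and 497. Its lower TPM in replicate 2 likewise went with effective length, 1661 against 2031 bases. Aif1 (IBA1), the calcium-binding protein widely used to stain microglia, had 4.53 and 3.69 TPM (4.11 ± 0.594), from 57 and 46 counts. Cd68, a lysosomal glycoprotein of phagocytes, had 3.95 and 4.21 TPM (4.08 ± 0.184). Lpcat2, an enzyme of platelet-activating factor synthesis, had 4.09 and 3.76 TPM (3.92 ± 0.233). These 3 genes overlapped in level. Mpeg1, the pore-forming protein perforin-2, was the lowest here with 2.19 TPM in replicate 1 and 2.66 TPM in replicate 2 (2.42 ± 0.332).

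Of the leukocyte surface genes, Selplg, which encodes the P-selectin ligand PSGL-1, had 11.5 and 11.1 TPM (11.3 ± 0.318). Cd53, a tetraspanin of white blood cells, had 3.38 and 3.32 TPM (3.35 ± 0.0424). Selplg was well above Cd53 in both libraries. Along the full order of the 33 genes, 12 of the 32 neighbouring pairs had values that did not overlap, among them each step from Csf1r through Ctss, C1qb and C1qa to P2ry12. With n = 2 such a gap does not settle the order of neighbours. The deposited credibility intervals of Ctss and C1qb, and of C1qb and C1qa, overlapped in each library.

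The perivascular genes lay at the low end of the order, where Mrc1, Irf8 and Spi1 overlapped. Mrc1, the mannose receptor CD206 of perivascular and meningeal macrophages, had 1.37 TPM in replicate 1 and 1.56 TPM in replicate 2 (1.47 ± 0.134), from 162 and 186 counts. Pf4, a chemokine made by border macrophages and also by platelets, had 0.81 and 1.52 TPM (1.17 ± 0.502). Pf4 rested on 5 counts in replicate 1 (95% exact Poisson interval 1.62 to 11.7) and 10 counts in replicate 2 (4.80 to 18.4), intervals that overlap and cover counting error only.

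Set against each other, the homeostatic genes stood above the perivascular genes in each library. The lowest homeostatic value in any library was 3.55 TPM (Gpr34) and the highest perivascular value was 1.56 TPM (Mrc1), so the groups did not overlap. The difference of mean log2(TPM + 0.1) was 2.57 in replicate 1 and 2.06 in replicate 2 (2.31 ± 0.36), about 4.97 times. Against Mrc1 alone the difference was 2.13 ± 0.13, and against Pf4 alone 2.49 ± 0.59. With 12 further border macrophage genes added to the perivascular side, the difference was 3.72 ± 0.25, about 13.2 times, and 3.62 ± 0.29 in the second quantification. The size of this gap thus depended on which perivascular genes stood in it, and it describes the levels of chosen markers, not the number of cells.

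Those 12 further border macrophage genes had a median of 0.343 TPM, and Stab1 was the single one detected. In the second quantification, whose TPM were higher in general, the median was 0.719 TPM and 4 were detected (Cd163, Clec10a, F13a1 and Stab1). Stab1, a scavenger receptor, had 9.46 TPM in replicate 1 and 6.59 TPM in replicate 2 (8.03 ± 2.03), with counts of 652 and 625. Its lower TPM in replicate 2 went with effective length, 3066 against 4103 bases. Of the homeostatic genes, Olfml3, Sall1, Siglech, Slco2b1, P2ry13 and Gpr34 were below Stab1 in both libraries. Tmem119 and Fcrls were below Stab1 in replicate 1 alone, an order that cannot be told apart from the change in its effective length. P2ry12 and Cx3cr1 were above it in both. The clotting factor subunit gene F13a1 had 0.78 and 0.90 TPM, and Cd163, the haemoglobin scavenger receptor, 0.85 and 0.74 TPM. Clec10a, a galactose-binding lectin, had 0.63 and 0.70 TPM, and Cbr2, a carbonyl reductase, 0.52 and 0.56 TPM. Lyve1, a hyaluronan receptor that also marks lymphatic vessels, had 0.27 and 0.65 TPM, from 17 and 37 counts. Folr2, a folate receptor, was at 0.08 and 0.37 TPM. Siglec1, Mgl2, Ms4a7 and Cd209f had means of 0.105, 0.105, 0.1 and 0.04 TPM. The chemokine Ccl24 had no count in either library, which allows up to 0.161 TPM in replicate 1 and 0.157 TPM in replicate 2 at 3 counts. The second quantification gave Ccl24 3 and 5 counts (0.193 and 0.315 TPM). Its deposited intervals in the first reached 0.332 TPM in replicate 1 and 0.318 TPM in replicate 2. All of these lie above that limit, which covers only counting in the first quantification.

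**Figure D2:**
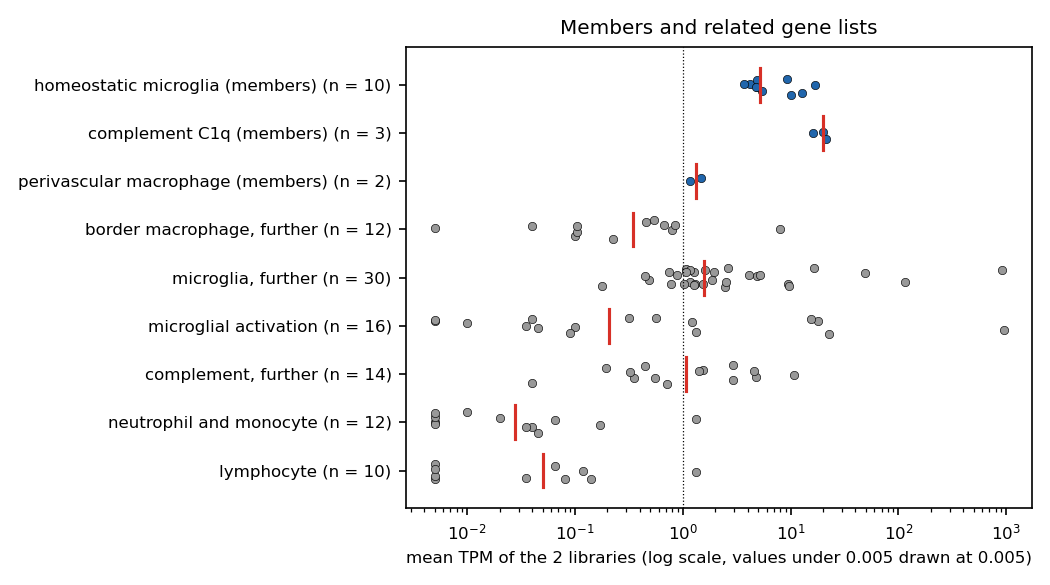
Mean TPM of both libraries (log axis, values under 0.005 drawn at 0.005) for 3 member groups in blue and for 6 related gene lists in grey, 1 point per gene, with the median of each list as a red bar and a dotted line at 1 TPM. The homeostatic genes have a median of 5.18 TPM and the C1q genes 20.1 TPM, while the further border macrophage genes have a median of 0.343 TPM and most neutrophil and lymphocyte genes lie under 0.2 TPM.

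Markers of blood leukocytes that share myeloid or surface genes with microglia were low. Of 12 neutrophil and monocyte genes, 1 was detected (Ly6c2, 1.05 and 1.61 TPM, from expected counts of only 12.3 and 18.2). The median was 0.0275 TPM and 4 had no count, among them S100a9 and Ly6g. The summed level of that list was 1.34 TPM in replicate 1 and 2.09 TPM in replicate 2, or 3.69 and 4.78 TPM in the second quantification, where Ly6c2 was again the single gene detected. Ccr2, the chemokine receptor that defines inflammatory monocytes, was at 0.02 TPM in both libraries and at 0.251 and 0.101 TPM in the second quantification. Of 10 lymphocyte genes, 1 was detected (the kinase gene Lck, 1.14 and 1.49 TPM, from 25 and 30 counts). Cd3e, Cd3g, Cd3d and Cd8a had no count. The second quantification gave Cd3d 1.01 and 0.723 TPM, Cd8a 0.235 and 0.252 TPM and Cd3g 0.112 and 0.110 TPM, and Cd3e alone remained without a count. The lymphocyte list summed to 1.46 and 2.05 TPM, against 265.8 and 266.0 TPM for the members. In the second quantification it summed to 5.29 and 5.06 TPM, against 447.9 and 444.1 TPM.

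Ligands and partners of the microglial receptors spanned a wide range of levels, and 13 of 14 such genes were detected. Cx3cl1, the fractalkine of neurons, had 161.1 TPM in replicate 1 and 166.4 TPM in replicate 2, which is 12.8 ± 0.369 times the level of its receptor Cx3cr1. Il34, the neuronal ligand of Csf1r, had 29.1 and 28.8 TPM, 1.01 ± 0.0893 times the level of the receptor. Csf1, the other ligand, had 8.29 and 7.89 TPM, so Il34 exceeded Csf1 by 3.58 ± 0.0981 times. Both libraries thus gave the same order of these ligands.

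Cd200, an inhibitory ligand on neurons, had 30.8 and 32.8 TPM, whereas its receptor gene Cd200r1 had 0.07 TPM in both libraries, from 2 counts each. Cd47, the "do not eat" signal, had 91.0 and 91.1 TPM, and its receptor Sirpa, which neurons also express, 117.8 and 118.8 TPM. Gas6, which bridges dying cells to phagocytes, had 33.1 and 34.6 TPM, 9.07 ± 0.608 times the related ligand Pros1 at 3.48 and 4.0 TPM. Their receptor Mertk, also found on astrocytes, had 15.7 and 13.3 TPM. In the transforming growth factor beta pathway, on which the homeostatic state depends, Tgfb2 had 14.4 and 12.9 TPM and Tgfb1 2.80 and 2.87 TPM. The receptor genes Tgfbr1, at 8.10 and 7.01 TPM, and Tgfbr2, at 4.36 and 4.08 TPM, lay between these ligands.

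Complement genes other than C1q were uneven. Of 14 such genes 7 were detected, with a median of 1.06 TPM. The proteases that C1q carries were low, with C1ra at 0.35 and 0.36 TPM and C1s1 at 0.49 and 0.61 TPM. C1qa stood 56.7 ± 1.12 times above C1ra and 36.9 ± 4.25 times above C1s1 (49.3 and 65.2 times in the second quantification). C4b, the next component of the classical pathway, had 11.1 and 10.3 TPM, while C2 had 0.45 and 0.44 TPM. C3, the central component, had 0.40 and 0.25 TPM, from nearly equal counts of 25 and 26. The second quantification gave C2 4.24 and 3.07 TPM and C3 1.72 and 0.371 TPM, far from the first, and C4b 13.1 TPM in both libraries. C4b thus lay above C2 and C3 in both quantifications, while the levels of C2 and C3 depended on which was used.

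Regulators of complement, apart from Cfi, lay in between. Properdin (Cfp), which stabilises the alternative pathway, had 5.15 and 4.10 TPM. The inhibitors Serping1 and Cd55 had 3.02 and 2.85 TPM and 2.95 and 2.93 TPM, and Cd59a 1.23 and 1.58 TPM. Cfi, the protease factor I, had 0.08 TPM in replicate 1 and was listed at 0 in replicate 2. The anaphylatoxin receptor genes were low, with C3ar1 at 0.22 and 0.17 TPM. C5ar1 had 1.05 TPM in replicate 1 and 0.39 TPM in replicate 2, from 29 and 20 counts.

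Genes known to rise in activated or disease-associated microglia were mostly low next to the homeostatic genes. Of 16 such genes 6 were detected, and the median was 0.208 TPM, against 5.18 TPM for the homeostatic genes. The highest, Apoe (913.1 and 981.0 TPM), Cd9 (23.2 and 22.6 TPM) and Lpl (19.0 and 17.1 TPM), are also expressed by astrocytes, other glia or neurons. Cst7 and Ccl4, named here after their values were seen, had no count in either library, which allows up to 0.150 TPM for Cst7 and 0.238 TPM for Ccl4 in replicate 1. Which cells made the detected members of this list was not tested.

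The libraries were close to each other across the members. Ratios were taken for the 29 members with at least 50 counts in both libraries, which left out Spi1, Pf4, Cd14 and Aif1. On the log2 scale, TPM in replicate 2 over TPM in replicate 1 had a median of -0.019 over these 29 genes, against -0.044 over 13916 genes. Their SD was 0.16, against 0.20 over all. The ratio was above 0 in 13 members and below 0 in 16, while 36.9% of all genes were higher in replicate 2. On counts scaled by TMM factors, 18 members were higher in replicate 2 and 11 lower, with 51.2% of all genes higher and a median of 0.036 over the members. The split of directions thus followed the scaling, and in the 5 members whose sign changed the log2 ratio was at most 0.06 in size on either scale.

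None of the 29 members was 2-fold apart, against 0.273% of all genes, and none had deposited credibility intervals that failed to overlap, against 5.92%. With the minimum at 10 counts there were again none of either kind in TPM, against 1.5% and 4.8% of all genes. At those background rates few or no calls among 29 genes would be made in any case. The extremes were Laptm5 at -0.39, which had a value of -0.05 on the TMM scale, and Mpeg1 at 0.28, which had 0.32. Fcrls had 0.24 and 0.30, and Csf3r -0.31 and -0.30. The mean chi-square per gene, which is near 1 where libraries differ by sampling alone, was 1.56 in the members and 2.46 in 16135 genes of the same count range. The median was 0.770 in the members and 0.750 in those genes, so the typical member was close to other genes. The value near 1 is a reference for the mean and not for the median.

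In 5 members the log2 TPM ratio and the TMM ratio differed by more than 0.1. Spi1 was at 0.85 on the TPM scale and 0.18 on the TMM scale, the widest gap. Irf8 was at -0.30 and -0.13, Cd14 at -0.08 and 0.11, and Pf4 at 0.91 and 1.01. Laptm5, the fifth, and Irf8 each had a TPM outside their own deposited interval. TPM divides by effective length, which the TMM ratio does not use. In the same libraries the choroid plexus gene Ttr was at 10.6 and 23.1 TPM, and 5 of 5 red blood cell genes were higher in replicate 2 (log2 ratio 0.17 at the median); the part of either in the members' ratios was not tested.

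**Figure D3:**
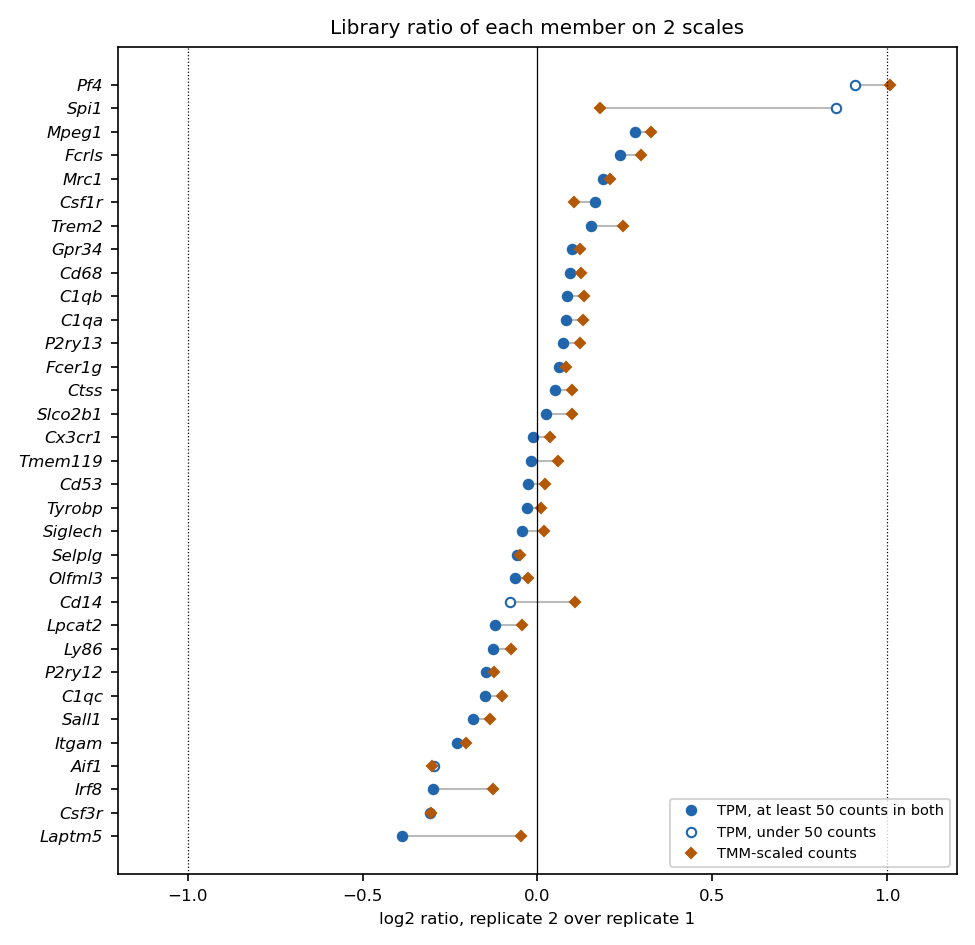
Log2 ratio of replicate 2 over replicate 1 for the 33 genes, from TPM (circles, open where a library had under 50 counts) and from TMM-scaled counts (diamonds), with dotted lines at 2-fold. Ratios of the 29 members with at least 50 counts run from -0.39 (Laptm5) to 0.28 (Mpeg1) on TPM, and Spi1 moves from 0.85 to 0.18 between the scales.

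Transcripts within the members were compared between the deposited quantifications, since these can split reads of a gene in different ways. The second quantification gave higher TPM throughout, by a median of 1.64 times in the members (1.14 to 2.15) and 1.68 times over all detected genes. Of 27 members with more than 1 transcript, 20 had the same most abundant transcript in both quantifications, and 17 had it in each library of both. Among the detected ones this was 76% of 25 genes, against 75.5% of 11502 detected protein-coding genes. The members were thus close to other genes in this respect.

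The 7 members with a different leading transcript were P2ry12, Gpr34, Csf3r, Tyrobp, Aif1, Lpcat2 and Pf4. For P2ry12, P2ry12-202 held 67.7% ± 2.20 of the gene's TPM in the first quantification and none in the second, where P2ry12-201 held 71.9% ± 1.97. For Tyrobp, Tyrobp-201 held 78.1% ± 6.15 in the first, while in the second it held 48.0% in replicate 1 and none in replicate 2, where Tyrobp-202 held the whole. For Gpr34, Gpr34-202 fell from 73.2% ± 11.1 in the first to 18.5% ± 4.39 in the second. Cx3cr1 kept the same leader, but Cx3cr1-201 held all of its TPM in the first quantification and 42.2% ± 7.23 in the second. Which isoform of these genes leads in hippocampus cannot be read from these data, whereas Csf1r-201 led in both, with 80.7% ± 3.33 and 86.8% ± 3.09.

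The split between transcripts differed between the libraries in Laptm5. Laptm5-210, a short coding transcript, had 4.71 TPM in replicate 1 and 0.47 TPM in replicate 2 in the first quantification. Laptm5-201 moved the other way, from 1.33 to 3.20 TPM, and the main transcript Laptm5-207 was at 7.32 and 6.92 TPM. In the second quantification Laptm5-210 was at 5.02 TPM in replicate 1 and listed at 0 in replicate 2, with the whole gene at 20.6 and 19.4 TPM. Spi1 had a similar pattern, with the short transcript Spi1-204 listed at 0 in replicate 1 and 0.58 TPM in replicate 2, while Spi1-201, the longest, had 0.90 and 0.76 TPM.

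Some members had much of their TPM in transcripts annotated as retained intron, nonsense-mediated decay or processed, which are not counted as coding. Over the 31 detected members these held 5.07% ± 0.661 of the TPM, against 15.3% ± 0.391 over 12710 detected protein-coding genes. In the second quantification the shares were 5.59% ± 0.127 and 18.3% ± 0.215, so the members were lower in both. Part of this gap lay in the annotation, since 18 of the 31 members (58.1%) have any such transcript, against 79.0% of the protein-coding genes. Over the genes that have one, the shares were 10.5% ± 1.14 in the members and 19.4% ± 0.503 in all, or 11.2% ± 0.495 and 22.9% ± 0.275 in the second quantification. The sums are weighted to abundant genes, and no test was made of this difference.

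Olfml3 was the extreme, with 84.2% in replicate 1 and 86.2% in replicate 2 (85.2% ± 1.45), all of it in the retained-intron transcript Olfml3-202. The second quantification gave Olfml3 92.7% ± 0.784. Lpcat2, at 65.0% ± 6.94 in the first and 71.2% ± 2.6 in the second, was spread over retained-intron, decay and processed transcripts. Aif1 had 61.0% ± 3.39 in the first but 27.3% ± 6.11 in the second. These 3 were the detected members at 50% or more in the first quantification, 9.68% of 31, against 9.94% of detected protein-coding genes. Pf4 had 61.8% ± 12.1 in the first and none in the second, on its few counts. Itgam, which has annotated processed and decay transcripts, had none of its TPM there in either quantification, and Cx3cr1, P2ry12, Tmem119, Fcrls, Gpr34, Slco2b1 and Ctss have no such transcript in the annotation.

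**Figure D4:**
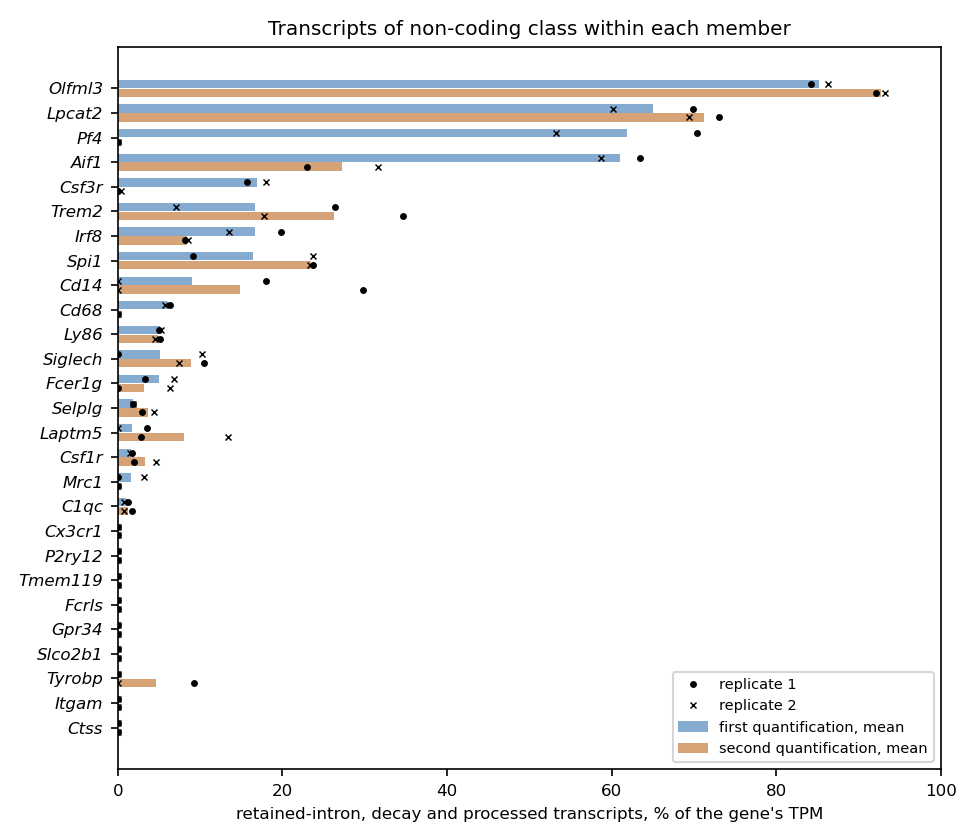
Share of each member's TPM in retained-intron, decay and processed transcripts (percent), as the mean of both libraries for the first (blue) and second (orange) quantification, with points for replicate 1 and crosses for replicate 2, for the 27 members with more than 1 transcript. Olfml3 and Lpcat2 exceed 50% in both quantifications, while Aif1 and Pf4 do so in the first alone.

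Several members share their stretch of genome with other genes, and whether reads were counted by strand is not given in the sources used here. Of 11 members overlapped by another annotated gene, 5 were overlapped on the opposite strand by a detected gene. P2ry12 (chr3:59216272-59262871 on mm10) and P2ry13 (chr3:59207892-59210882) lie within the span of Med12l, a Mediator subunit gene with a mean of 21.5 ± 0.750 TPM. Gpr34 (chrX:13632089-13640858) is overlapped by Cask, a synaptic scaffold gene at 32.8 and 32.4 TPM, and Csf1r by Hmgxb3 at 15.2 and 14.8 TPM. Cx3cr1 is overlapped by Wdr48 on the opposite strand, at 31.1 and 26.2 TPM, and by Gorasp1 and Csrnp1 on its own strand. The exons of these pairs were mostly apart. Csf1r shared 873 of its 5774 exon bases (15.1%) with exons of Hmgxb3, P2ry12 9 bases with Med12l, and the other pairs none. Reads from the shared bases of Csf1r cannot be assigned to 1 gene unless strand was used. Only exons were compared. Total RNA can hold unspliced RNA, and reads from introns of Med12l, Cask, Hmgxb3 or Wdr48 over exons of these members were not examined. Irf8 is overlapped on its own strand by Gm20388, a gene model far longer than Irf8 that had 3.08 TPM in replicate 1 and was listed at 0 in replicate 2, but their exons share no base. Itgam shares 3450 of its 5024 exon bases (68.7%) with Gm49368 on its own strand, a gene listed at 0 in both libraries, so the split of reads between them is uncertain.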

How the data were processed

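Hippocampal total RNA was sequenced in 2 libraries of 1 group, with ERCC spike-ins and 300 ng of input RNA. Per the deposited text listings, gene values and a first set of transcript values came from reads aligned to the transcriptome of mm10 with GENCODE M21, and a second set of transcript values directly from the reads; the programs are not named in the sources used here. The authors deposited, per the file headers, an expected count (estimated reads per gene or transcript), a TPM over all entries, spike-ins included, and credibility bounds of TPM, another value whose level is not stated. Total expected counts were 31422827 and 31303010, so a member's precision is set by its own count, from 5 (Pf4) to 2311 (Csf1r).

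Identifiers were joined by gene ID and named by the files, and 26345 entries outside the gene annotation were left out of gene results. Detection meant 1 TPM or more in each library. Library ratios used expected counts of at least 50 in both and no pseudocount, group differences log2(TPM + 0.1), and means carry the SD over 2 libraries. Expected counts, rounded to whole numbers, were scaled with TMM factors (edgeR 4.0.16, R 4.3.3) for the TMM ratios. The chi-square compared the rounded counts against their totals in each library, without TMM factors. Calls of 2-fold ratios were tried on simulated counts with large planted changes, which did not cover TPM ratios, TMM scaling or low counts. With 1 group no p-value was computed. Limits at a count of 0 used 3 counts, and intervals of counts were exact Poisson at 95%, for counting error only. Promoters came from RefSeq (GRCm38.p6). Reads of both parental strains were assigned to the C57BL/6J reference, and loss of CAST/EiJ reads was not measured. Genes named were all members, each gene of further lists of up to 14, the 3 highest of longer lists, and overlapping genes; some genes so named are not reported here. The members and lists were chosen with earlier results of these data known. Alternatives covered thresholds, pseudocounts, scaling, the other quantification and either library left out.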

Additional observations from a re-analysis of the deposited data

How the results depend on the processing

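The median level of the members, 4.80 TPM, was 11.5 TPM when rescaled to nuclear protein-coding genes and 8.70 TPM in the second quantification, and 4.76 to 4.79 TPM with either library left out; a rescaling moves all genes alike. Detected members numbered 33 at 0.5 TPM, 28 at 2 TPM, 32 in the second quantification, and 31 to 33 with 1 library left out. The homeostatic side stayed above the perivascular side in mean log2 level in each alternative, although Stab1, 1 of the 12 further genes, lay above several homeostatic genes. The log2 difference of 2.31 was 1.77 with a pseudocount of 1, 2.39 with 0.01 and 2.63 in the second quantification. It was 3.72 with the 12 further genes and 3.62 with these in the second quantification (chosen after seeing the data). With 1 library left out it was 2.06 to 2.57. The median log2 library ratio of -0.019 was 0.036 on TMM-scaled counts, and the sign differed in 5 of 29 members there and in 3 in the second quantification. C1qa held 31.2% and C1qc 30.8% of C1q TPM in the second quantification. With 1 library left out, C1qa held 34.1% to 35.6%, C1qb 36.3% to 38.0% and C1qc 26.4% to 29.6%. None of the 29 members with at least 50 counts was 2-fold apart on TMM-scaled counts or in the second quantification. With the minimum at 10 counts (background 1.5%) none was 2-fold apart in TPM, and none had separate intervals (background 4.8%). Pf4, below both minimums, had a TMM ratio of 1.01, past 2-fold. Counted in the second quantification, also chosen after seeing the data, the further border macrophage genes detected numbered 4 in place of 1. Depth limits Pf4, Spi1, Cd14 and Aif1 most. No paired analysis was possible because the libraries form 1 group.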

Other observations

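Genes often used beside the members to follow microglia were more uneven than the members. Of 30 further microglia-associated genes 22 were detected, with a median of 1.58 TPM. Among the highest were Cst3, the protease inhibitor cystatin C (886.3 and 933.9 TPM), and Sparc, a matrix-binding glycoprotein (117.4 and 111.3 TPM). Both are also made by other cells of the brain.

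Other cell types of the tissue gave a scale for the members. Neuron genes had a median of 265.2 TPM (Snap25, 923.7 and 879.5 TPM), astrocyte genes 88.1 TPM (Slc1a3, 158.2 and 165.0 TPM) and oligodendrocyte genes 84.6 TPM (Mobp, 127.1 and 107.0 TPM). Endothelial genes had a median of 4.998 TPM (Cldn5, 18.0 and 19.9 TPM), near the 5.18 TPM of the homeostatic microglial genes. Among red blood cell genes the median was 111.3 TPM, and they summed to 376.6 TPM in replicate 1 and 420.3 TPM in replicate 2. The meningeal collagen genes Col1a1 (3.92 and 3.97 TPM) and Col1a2 (4.47 and 5.16 TPM) lay above both perivascular members.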
